A study of Rattus norvegicus with 62 samples.

Results

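The Kv2 family of potassium channels was followed in L4 dorsal root ganglia of the rat through 9 listed genes: Kcnb2, which encodes the pore-forming subunit Kv2.2, and 8 silent modifier subunits, Kcns1, Kcns2, Kcns3, Kcnv1, Kcnf1, Kcng2, Kcng3 and Kcng4. They are 9 of the 40982 genes in the count tables, and each was matched by its symbol. The study measured poly-A RNA of whole ganglia, which hold the cell bodies of sensory neurons, after chronic constriction injury, a loose ligation of the sciatic nerve that is used as a model of neuropathic pain. Its title asks how the sexes differ while such pain resolves. In 5 arms the ipsilateral ganglion, on the injured side, was set against the contralateral ganglion: males at 24 h (6 ipsilateral and 6 contralateral libraries), males at 1 week (7 and 7), males at 5 weeks (5 and 5), females at 1 week (7 and 7) and females at 5 weeks (6 and 6). All of these rats were injured, so the contralateral ganglia are not those of uninjured animals. The labels give no strain, age or further treatment.

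Kv2 channels carry a slowly inactivating, voltage-gated potassium current that repolarises the neuron and limits repetitive firing. The silent subunits, of the Kv5, Kv6, Kv8 and Kv9 classes, form no working channel alone. They join Kv2 subunits in mixed tetramers, in which they shift the voltage dependence and the kinetics of the current. In sensory neurons a loss of Kv2 function or of the Kcns1 product is known from rodent work to raise excitability, and variants of human KCNS1 have been studied for an association with pain.

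The 62 libraries held 16.9 to 33.5 M counts each. Both Y-linked check genes were counted in 36 of 36 male libraries, and their highest count in any of the 26 female libraries was 0.33. Atf3, a transcription factor induced in axotomised neurons, was higher on the ipsilateral side in every arm, with log2 fold changes between 4.46 and 5.27. The table of the 1 and 5 week males (24 libraries) and the table of the females and the 24 h males (38 libraries) are separate, so at 1 and 5 weeks sex and table cannot be told apart. Ribosomal RNA took a mean of 0.97% of counts in ipsilateral and 2.25% in contralateral ganglia of females at 1 week. In the other arms the sides were closer, at 0.875% and 0.869% in males at 24 h, 5.10% and 5.10% in males at 1 week, 3.74% and 3.32% in males at 5 weeks, and 2.05% and 2.11% in females at 5 weeks, each pair given ipsilateral side first.

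The sequences just upstream of the start sites are shown for 3 members: Kcns1 and Kcns3, which fell in every arm, and Kcng4, whose estimate was above 0 in every arm though never called. RefSeq windows of 250 bases (build GRCr8) were held for 6 of the 9 members, in 7 windows, and Kcnb2, Kcns2 and Kcnv1 had none. The windows are chr3:173262347-173262596 for Kcns1, chr6:39584106-39584355 for Kcns3 (the upstream one of its pair) and chr19:64597889-64598138 for Kcng4, all on the minus strand. They are written 5′ to 3′ along the gene, and capitals mark matches to a GC box (GGGCGG) or an E-box (CANNTG) on either strand.
Kcns1: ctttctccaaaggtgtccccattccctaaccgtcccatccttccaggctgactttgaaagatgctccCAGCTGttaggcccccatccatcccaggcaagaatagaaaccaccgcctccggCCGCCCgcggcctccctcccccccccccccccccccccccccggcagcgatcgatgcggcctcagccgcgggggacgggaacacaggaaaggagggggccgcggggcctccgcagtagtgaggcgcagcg
Kcns3: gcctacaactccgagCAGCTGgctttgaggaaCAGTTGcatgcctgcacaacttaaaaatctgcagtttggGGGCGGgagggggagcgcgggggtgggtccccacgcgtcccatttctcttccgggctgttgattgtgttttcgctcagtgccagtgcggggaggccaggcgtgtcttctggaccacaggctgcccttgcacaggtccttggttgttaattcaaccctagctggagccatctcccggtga
Kcng4: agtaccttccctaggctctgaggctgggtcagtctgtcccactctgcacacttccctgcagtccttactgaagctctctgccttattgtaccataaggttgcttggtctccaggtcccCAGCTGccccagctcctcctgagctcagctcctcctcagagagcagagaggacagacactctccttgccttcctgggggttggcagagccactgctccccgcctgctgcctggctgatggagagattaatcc
The Kcns1 window held 1 GC box and 1 E-box, the Kcns3 window shown 1 GC box and 2 E-boxes, and the Kcng4 window 1 E-box and no GC box. The other Kcns3 window, not shown, held 2 GC boxes and no E-box. Also not shown, the window of Kcnf1, a member called lower in 4 arms, held 2 E-boxes and no GC box. Those of Kcng2 and Kcng3 held 2 GC boxes and 1 E-box each. Of all 33469 such windows, 30.5% held a GC box and 65.5% an E-box. Further motifs searched on both strands, namely TATAAA (12.9% of all windows), the AP-1 site TGANTCA (6.34%), the cAMP response element TGACGTCA (1.59%), the C/EBP site TTGCNNCAA (1.75%) and TTCAGCACC, the left part of the RE1 element (0.305%) were held by no member window. A missing match says only that these letters are not in this window.

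Per length of exon, expression on the contralateral side was dominated by a pair of silent subunits of the Kv9 class. Kcns1 had group means of 27.8 to 34.3 CPM (counts per M) per kb over the 5 contralateral groups, and Kcns3 20.7 to 24.7. These 2 genes made up 82.0% to 83.6% of the summed level of the 8 silent members there, and 74.3% to 80.2% on the ipsilateral side. Their ranges over libraries did not overlap in 4 of the 5 contralateral groups, the exception being males at 5 weeks. A middle group followed, with Kcnf1 at 3.76 to 5.56, Kcnv1 at 3.68 to 4.36 and Kcnb2 at 1.75 to 3.88 CPM per kb; within it neighbours overlapped in 4 of the 5 contralateral groups, the exception being females at 5 weeks, so that their order is not settled in those 4. Kcng2 (0.923 to 1.52) and Kcng3 (0.654 to 1.93) came next and changed places between groups, with Kcng3 above Kcng2 in males at 1 and 5 weeks and below it in the 3 other contralateral groups. Kcng4 (0.098 to 0.220) and Kcns2 (0.0218 to 0.0517) were lowest. Without division by length Kcnb2, whose exons span 8703 bases, ranked in place 3 and Kcnf1, with 2679 bases, in place 5.

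**Figure D1:**
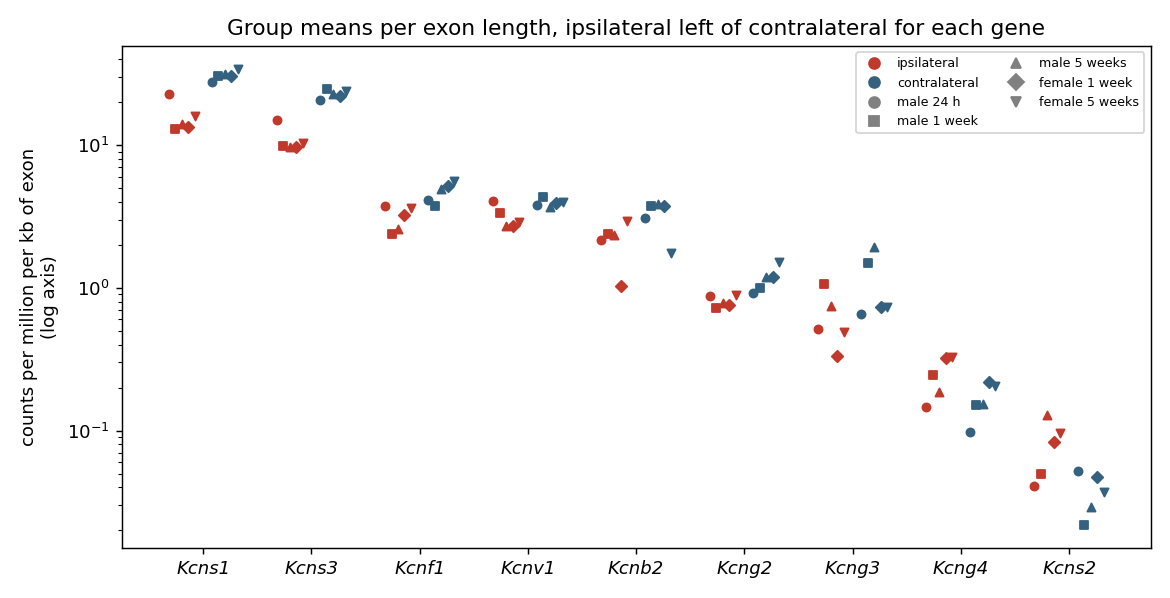
Group means of the 9 members in CPM per kb of exon, on a log axis, with the 5 ipsilateral groups (red) left of the 5 contralateral groups (blue) for each gene and the marker shape giving the arm. Kcns1 and Kcns3 stand above the others on both sides, and Kcns2 is lowest.

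After injury the members mostly fell. In males at 24 h 3 of 9 members tested were lower in ipsilateral ganglia and none was higher, where 5.90% of all 18125 genes tested were called lower and 8.23% higher. In males at 1 week 7 of 8 fell (23.4% of all genes lower, 23.6% higher), and in males at 5 weeks 7 of 8 (18.7% lower, 16.0% higher). Of 9 members in females at 1 week 7 fell (21.8% lower, 23.9% higher). In females at 5 weeks 5 of 9 fell (19.1% lower) and 2, Kcnb2 and Kcns2, rose (22.9% higher). Kcns2 passed the filter on low counts through the female ipsilateral libraries, where it is high, so its call adds no support to that count. The median log2 fold change of the members tested was -0.29, -0.57, -0.86, -0.67 and -0.54 in the same order of arms, against -0.01, 0.01, 0.00, 0.01 and 0.01 over all genes tested. Calls are at an adjusted p under 0.05 from edgeR's quasi-likelihood test with Benjamini-Hochberg adjustment over all genes. It is the source of every adjusted p below unless another method is named. The ± after a fold change is its standard error, back-calculated from the F statistic of that test. That filter kept Kcns2 in the second table only, so 8 of the 9 members were tested in males at 1 and 5 weeks. With the ribosomal RNA share as a covariate 3 of 9 members, Kcnb2, Kcns1 and Kcns3, were called in females at 1 week, where the covariate left 11.0% of all genes called lower. The 4 members no longer called there kept log2 fold changes of -0.75 (Kcnf1), -1.07 (Kcng3), -0.52 (Kcng2) and -0.29 (Kcnv1). In that arm the share was 0.692% to 1.42% in ipsilateral and 1.69% to 2.76% in contralateral libraries, with no overlap. Share and side are thus hard to separate there, and the fit cannot settle whether these 4 members respond less. Without numbers 5 and 6 on both sides 1 member, Kcns3, was called in males at 24 h (2.57% of all genes lower).

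Separation of the sides was complete for some members. The ipsilateral and contralateral libraries did not overlap for 1 member in males at 24 h (5.50% of all genes tested), 4 in males at 1 week (22.0%), 6 in males at 5 weeks (20.6%), 4 in females at 1 week (20.9%) and 5 in females at 5 weeks (21.7%). In whole ganglia fewer cells of a type and less RNA per cell cannot be told apart. Summed pan-neuronal markers (10 genes, none at 0) ranged over 14736 to 19190.0 CPM in ipsilateral libraries of weeks 1 and 5, against 18172 to 21501 in contralateral ones. Markers of large myelinated sensory neurons (8 genes, none at 0) ranged over 5391 to 7567 in ipsilateral and 7862 to 10077 in contralateral libraries of those weeks. Genes within both lists went both ways. Of the 10 pan-neuronal markers 3 were called higher and 6 lower in males at 1 week, and 3 and 4 in males at 5 weeks. In females 4 and 6 were called at 1 week, and 2 and 3 at 5 weeks. Of the 8 large-neuron markers 2 were called higher and 5 lower at 1 week in either sex, and 1 and 4 at 5 weeks. The shares of all genes called in each arm are given above. Small nociceptor markers (8 genes, none at 0) ranged over 1537 to 3034 in ipsilateral and 2446 to 3193 in contralateral libraries, and macrophage markers (8 genes, none at 0) over 81.9 to 257.8 in ipsilateral and 32.7 to 142.5 in contralateral ones. Schwann cell markers (8 genes, none at 0) ranged over 9139 to 19775 in ipsilateral and 11415 to 32170.3 in contralateral libraries. The part of these shifts in the members' values was not tested.

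**Figure D2:**
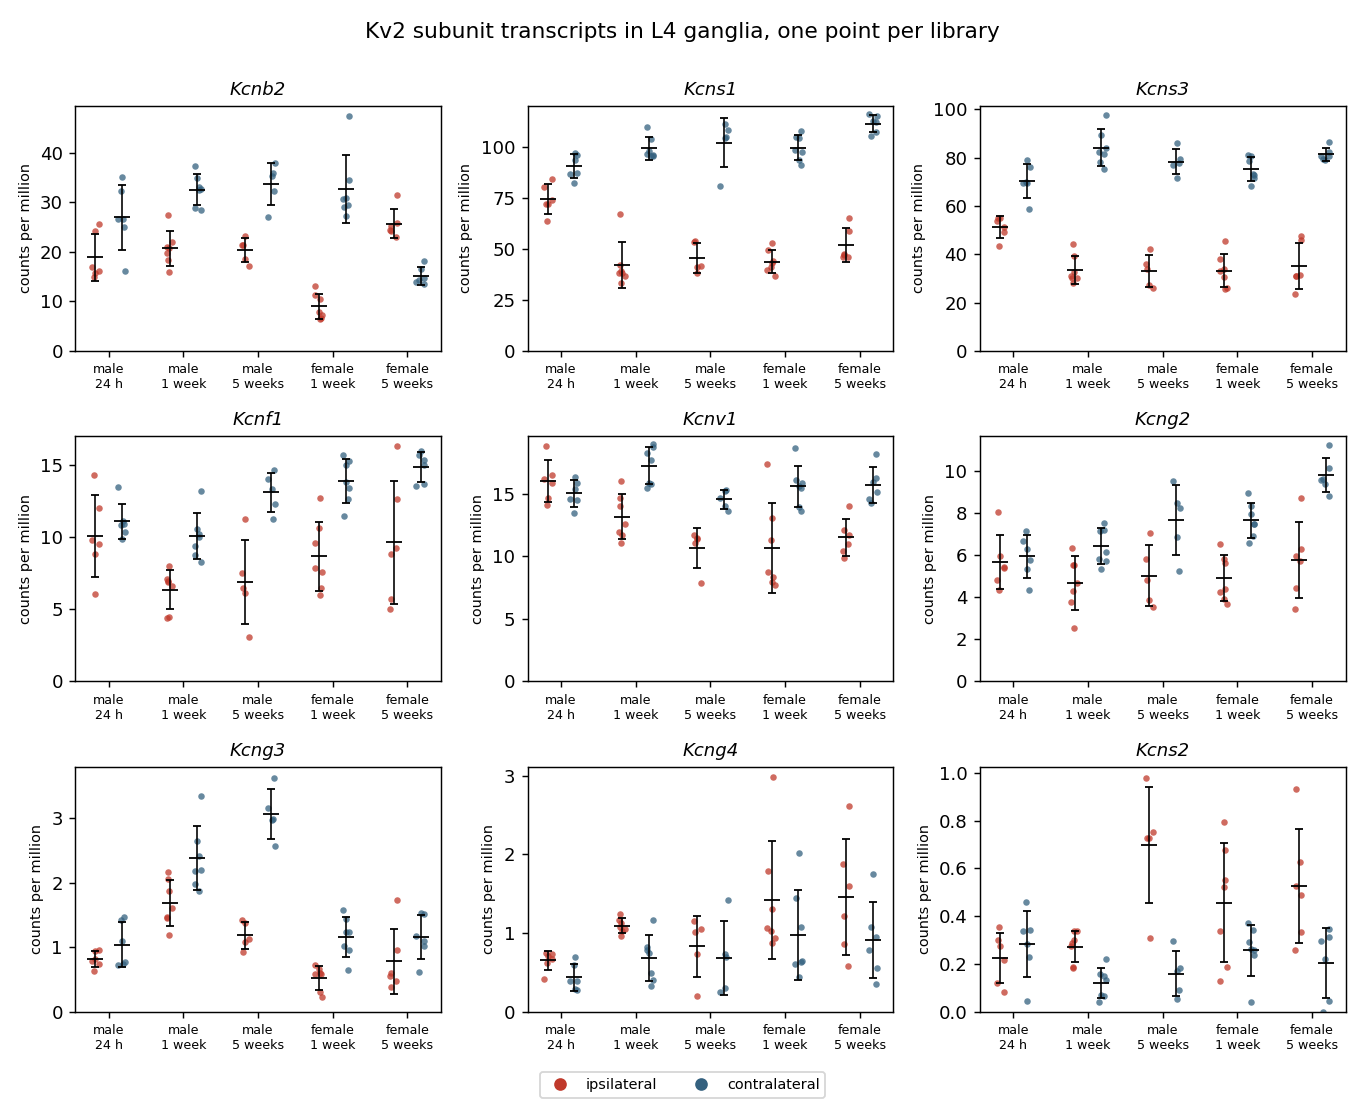
CPM of each member, 1 point per library, in the 5 arms, with ipsilateral libraries (red) left of contralateral ones (blue) and bars giving the mean ± SD. Kcns1 and Kcns3 separate fully by side at 1 and 5 weeks, while the order of the sides of Kcnb2 in females at 5 weeks is opposite to that in females at 1 week.

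Kcnb2 (chr5:3567012-4028564, minus strand, build mRatBN7.2; GeneID 117105) encodes Kv2.2, the only pore-forming subunit among the members. In females its response turned round between the 2 weeks. At 1 week the ipsilateral libraries held 6.48 to 13.0 CPM (median 7.86), against 27.4 to 47.5 (median 30.6) in contralateral ones. The sides did not overlap, and Kcnb2 fell to 27.5% of the contralateral level (log2 fold change -1.86 ± 0.16, adjusted p = 1.36e-11, lower in 7 of 7 pairs). At 5 weeks the ipsilateral libraries held 23.1 to 31.5 (median 24.9), against 13.5 to 18.1 (median 14.6) in contralateral ones. Again the sides did not overlap, and here Kcnb2 rose to 171% of the contralateral level (0.77 ± 0.17, adjusted p = 0.000439, higher in 6 of 6 pairs).

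Both sides of the female comparison moved between the weeks, in opposite directions. Kcnb2 was higher at 5 weeks than at 1 week in ipsilateral ganglia of females (log2 fold change 1.51 ± 0.17, adjusted p = 4.68e-08). In contralateral ganglia it was lower at 5 weeks than at 1 week (-1.12 ± 0.17, adjusted p = 1.60e-05). The labels give no preparation batch for these libraries, so a batch and the group cannot be told apart. The mean of both sides differed by 0.20 ± 0.12 (adjusted p = 0.292). The ipsilateral libraries of 5 weeks set against the contralateral libraries of 1 week gave -0.35 (adjusted p = 0.0866), and the ipsilateral libraries of 1 week against the contralateral ones of 5 weeks gave -0.74 (adjusted p = 0.000548), so that the sign at 5 weeks depended on which contralateral group it was read against. With the ribosomal RNA share as a covariate the response was -2.03 at 1 week and 0.76 at 5 weeks.

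In males Kcnb2 fell in all 3 arms. At 24 h the ipsilateral libraries held 14.9 to 25.7 CPM (median 16.5), against 16.1 to 35.2 (median 26.6) in contralateral ones, with overlap and with 1 of 6 pairs going the other way (-0.52 ± 0.17, adjusted p = 0.0351). The call depended on the fit, with much the same fold: the log2 fold change was -0.51 (adjusted p = 0.0541) with same-numbered libraries as a block, -0.52 (0.0681) with no filter on low counts and -0.51 (0.132) in a fit of only the 2 groups compared. Without numbers 5 and 6 on both sides it was -0.30 (adjusted p = 0.45). The fold was -0.43 to -0.52, with an adjusted p between 0.0526 and 0.1 when any 1 of contralateral numbers 2, 3 and 6 or ipsilateral numbers 3, 4, 5 and 6 was left out. At 1 week the ipsilateral libraries held 16.0 to 27.4 (median 20.7) and the contralateral ones 28.4 to 37.3 (median 32.8), with no overlap (-0.65 ± 0.10, adjusted p = 4.96e-06). At 5 weeks the ipsilateral values were 23.2, 21.4, 21.5, 17.1 and 18.6, against 27.0, 35.9, 32.4, 35.3 and 38.1 in contralateral ganglia, again with no overlap (-0.75 ± 0.12, adjusted p = 1.59e-05).

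**Figure D3:**
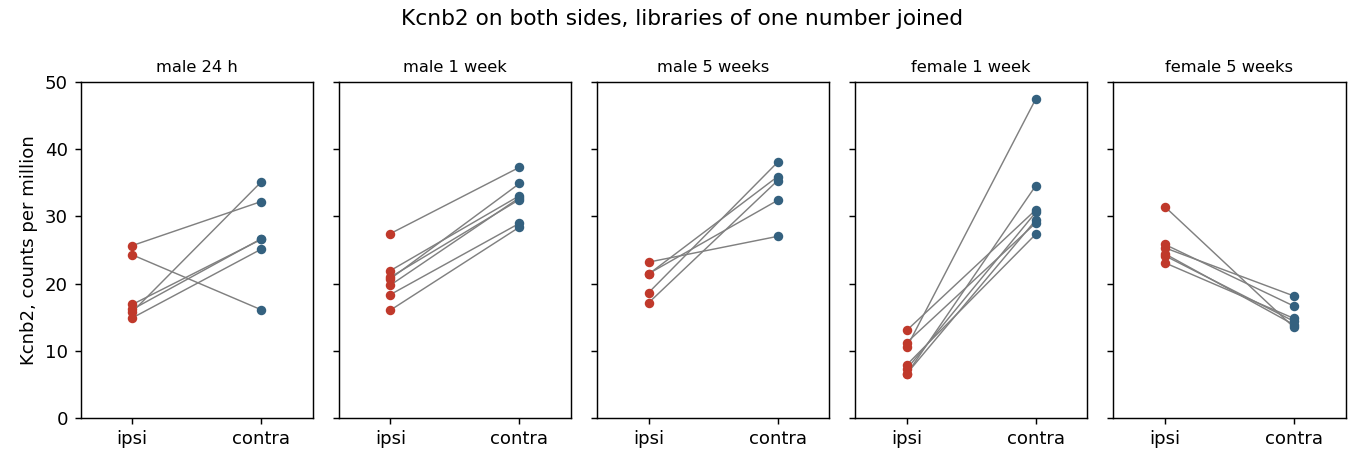
Kcnb2 in CPM on the ipsilateral (left) and contralateral (right) side in the 5 arms, with libraries of the same number joined by a line. The lines climb to the contralateral side in males at 1 and 5 weeks and in females at 1 week, and descend to it in females at 5 weeks.

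The genes whose values followed Kcnb2 most closely were chosen on the same libraries. Over the 62 libraries, with the mean of each arm removed, Pearson's r with Kcnb2 was 0.92 for Unc80, a subunit of the sodium leak channel complex, 0.92 for Plcxd3 and 0.91 for Ago3, an Argonaute protein of small RNA silencing, among 12888 genes compared. These libraries share tables, sequencing and the injury contrast, so r is a description, and the fold changes that follow are no support beyond it. Within the 31 ipsilateral libraries the same coefficients were 0.64, 0.58 and 0.58, and within the 31 contralateral ones 0.44, 0.51 and 0.48. Plcxd3 had a log2 fold change of -1.54 in females at 1 week and 1.01 at 5 weeks, Unc80 -1.15 and 0.47, and Ago3 -0.92 and 0.56. In females 300 of 18125 genes were called lower at 1 week and higher at 5 weeks and 127 the reverse, against 8 and 7 of 18980 genes in males.

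Kcns1 (chr3:152835642-152843032, minus strand; GeneID 117023) encodes Kv9.1, which in rat ganglia is known mainly from large myelinated neurons, and it fell in every arm. In females at 1 week it held 36.8 to 52.7 CPM (median 43.0) in ipsilateral ganglia, against 91 to 107.9 (median 98.4) in contralateral ones. In females at 5 weeks it held 46.1 to 65.3 (median 47.1), against 105.3 to 115.8 (median 112.5). The sides were far apart at both weeks, with log2 fold changes of -1.18 ± 0.07 (adjusted p = 8.75e-16) and -1.09 ± 0.08 (adjusted p = 1.74e-13). In males at 1 week the ipsilateral range was 33.1 to 67.0 (median 38.3), against 95.2 to 109.8 (median 96.2), a fold change of -1.24 ± 0.12 (adjusted p = 1.94e-08). In males at 5 weeks it held 38.1, 53.8, 53.3, 41.8 and 41.1 in ipsilateral ganglia, against 80.9, 111, 105, 104 and 108 in contralateral ones (-1.18 ± 0.14, adjusted p = 1.11e-06). At 24 h the drop was smaller, with 63.7 to 84.3 (median 72.9) against 82.4 to 96.9 (median 90.4), the ranges overlapping and 6 of 6 pairs lower (-0.29 ± 0.08, adjusted p = 0.00884).

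Kcns3 (chr6:33808314-33865018, minus strand; GeneID 83588) encodes Kv9.3 and fell in every arm by amounts near those of Kcns1. Females at 1 week held 25.7 to 45.4 CPM (median 33.0) in ipsilateral ganglia, against 68.4 to 81.1 (median 73.1) in contralateral ones, and at 5 weeks 23.4 to 47.4 (median 31.2) against 79.2 to 86.4 (median 80.7). The fold changes were -1.17 ± 0.11 (adjusted p = 9.23e-11) and -1.21 ± 0.12 (adjusted p = 7.16e-10). Males at 1 week had 28.1 to 44.1 (median 31.0) against 75.4 to 97.8 (median 82.4), and males at 5 weeks 42.1, 33.9, 35.9, 25.9 and 27.2 against 76.8, 71.5, 77.9, 85.9 and 79.5. These differences were -1.33 ± 0.10 (adjusted p = 3.23e-10) and -1.27 ± 0.12 (adjusted p = 3.35e-08), and no library of one side reached the other. At 24 h Kcns3 was the 1 member whose sides did not overlap, with 43.5 to 55.1 (median 52.6) against 58.8 to 79.1 (median 69.6) and a fold change of -0.46 ± 0.12 (adjusted p = 0.00629).

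Kcnv1, Kcnf1 and Kcng2 fell in the 4 arms of weeks 1 and 5 and were not called at 24 h. Kcnv1 (chr7:76260695-76269170, minus strand; GeneID 60326), the Kv8.1 subunit, had the smallest drops of the members called lower in all 4 arms, with log2 fold changes of -0.39 ± 0.08 in males at 1 week, -0.47 ± 0.10 in males at 5 weeks, -0.54 ± 0.12 in females at 1 week and -0.43 ± 0.13 in females at 5 weeks (adjusted p between 0.000318 and 0.007). In males at 1 week it was -0.17 (adjusted p = 0.143) against the contralateral libraries of 5 weeks, and in females at 1 week a covariate for ribosomal RNA gave -0.29 (adjusted p = 0.35). Its group means were 13.1 and 17.2 CPM in males at 1 week, 10.7 and 14.5 in males at 5 weeks, 10.6 and 15.6 in females at 1 week and 11.5 and 15.7 in females at 5 weeks, ipsilateral side first. At 24 h the ranges of the sides overlapped, and Kcnv1 stood at 16.0 ± 1.64 CPM in ipsilateral ganglia and 15.0 ± 1.05 in contralateral ones (SD, n = 6 each).

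Kcnf1 (chr6:39962301-39964979, minus strand; GeneID 298908), the Kv5.1 subunit, fell by 0.67 ± 0.18 on the log2 scale in males at 1 week, 0.96 ± 0.22 in males at 5 weeks, 0.67 ± 0.18 in females at 1 week and 0.61 ± 0.20 in females at 5 weeks (adjusted p = 0.00386, 0.00123, 0.00298 and 0.013). With a covariate for ribosomal RNA it was -0.75 in females at 1 week (adjusted p = 0.12), and in a fit of only the 2 groups compared -0.62 in females at 5 weeks (adjusted p = 0.0598). Its ipsilateral libraries varied widely, from 5.00 to 16.4 CPM in females at 5 weeks, where the contralateral range was 13.6 to 16.0. In males at 5 weeks they held 11.3, 6.47, 7.55, 3.10 and 6.15, against 14.1, 11.3, 14.7, 13.3 and 12.3. The pair of number 1 was thus the closest of the 5. At 24 h its log2 fold change was -0.14 ± 0.20 (adjusted p = 0.73).

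Kcng2 (chr18:73742224-73810420, minus strand; GeneID 307234), the Kv6.2 subunit, fell by 0.47 ± 0.17 in males at 1 week, 0.64 ± 0.21 in males at 5 weeks, 0.64 ± 0.15 in females at 1 week and 0.76 ± 0.16 in females at 5 weeks on the log2 scale (adjusted p = 0.029, 0.0178, 0.000433 and 0.000164). In females at 1 week it was -0.52 (adjusted p = 0.171) with a covariate for ribosomal RNA. In females the sides did not overlap at either week, with 3.69 to 6.55 CPM (median 4.38) against 6.57 to 8.98 (median 7.47) at 1 week and 3.42 to 8.72 (median 5.83) against 8.84 to 11.2 (median 9.62) at 5 weeks. In males they overlapped. The male calls depended on single libraries, the highest adjusted p with 1 library left out being 0.0651 at 1 week (without ipsilateral number 5; also lost without ipsilateral number 1 or 4 or contralateral number 2, 3 or 7) and 0.0713 at 5 weeks (without ipsilateral number 4; also lost without ipsilateral number 5 or contralateral number 1).

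Kcng3 (chr6:11051311-11099264, plus strand; GeneID 171011), the Kv6.3 subunit, also named Kv10.1, was called lower in 3 arms. In males at 5 weeks it held 1.08, 0.93, 1.42, 1.13 and 1.38 CPM in ipsilateral ganglia, against 3.15, 2.98, 3.63, 2.97 and 2.57 in contralateral ones, with no overlap (-1.39 ± 0.18, adjusted p = 1.12e-06). This was the largest drop of any member in that arm. In females at 1 week it held 0.233 to 0.726 (median 0.586) against 0.642 to 1.58 (median 1.23), from 5 to 17 and 15 to 34 counts (-1.12 ± 0.27, adjusted p = 0.000929), and a covariate for ribosomal RNA gave -1.07 (adjusted p = 0.121). In males at 1 week it held 1.19 to 2.17 (median 1.6) against 1.88 to 3.35 (median 2.2; -0.50 ± 0.14, adjusted p = 0.00535). In females at 5 weeks the fold change was -0.54 ± 0.29 (adjusted p = 0.129), and -0.94 (adjusted p = 0.00527) without ipsilateral number 2, which held 1.73 CPM.

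Kcng4 and Kcns2 had the lowest levels of the members. Kcng4 (chr19:47677307-47689410, minus strand; GeneID 307900), the Kv6.4 subunit, had log2 fold changes of 0.58 ± 0.43 in males at 24 h, 0.69 ± 0.31 in males at 1 week, 0.28 ± 0.39 in males at 5 weeks, 0.54 ± 0.33 in females at 1 week and 0.72 ± 0.36 in females at 5 weeks, and none was called (adjusted p = 0.419, 0.0688, 0.63, 0.181 and 0.114). In males at 1 week limma-voom called it (0.79, adjusted p = 0.0340), as did a fit of only the 2 groups compared (0.69, adjusted p = 0.0159). It was higher on the ipsilateral side in 7 of 7 pairs of males at 1 week and in 6 of 6 pairs of females at 5 weeks. With same-numbered libraries as a block it was called in males at 1 week (adjusted p = 0.0178), females at 1 week (0.0353) and females at 5 weeks (0.0233). In males at 1 week the ipsilateral libraries held 0.956 to 1.25 CPM (median 1.07), against 0.324 to 1.17 (median 0.741).

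Kcns2 (chr7:66022352-66028422, plus strand; GeneID 66022), the Kv9.2 subunit, was counted 0 to 22 times per library. In females at 5 weeks it rose to 0.256 to 0.931 CPM (median 0.506) in ipsilateral ganglia, against 0 to 0.348 (median 0.257) in contralateral ones (1.35 ± 0.47, adjusted p = 0.0195, higher in 5 of 6 pairs). It reached 10 counts, the filter's minimum, in 8 of 13 female ipsilateral libraries, against 0 of 13 female contralateral ones and 1 of the 12 libraries of males at 24 h, so that it was tested because of the side where it is high. With no filter the fold change was 1.35 (adjusted p = 0.0291). The 1 library at 0 allows up to 0.154 CPM, taken as 3 counts, and this limit covers counting error only. The call was lost without contralateral number 3 or 5 or ipsilateral number 5 (adjusted p up to 0.0738). In females at 1 week the fold change was 0.84 ± 0.42 (adjusted p = 0.0983), and in males at 24 h -0.31 ± 0.50 (adjusted p = 0.751). In males at 5 weeks it held 0.307, 0.728, 0.978, 0.753 and 0.729 in ipsilateral ganglia, against 0.295, 0.171, 0.0919, 0.0521 and 0.184 in contralateral ones, and a fit with no filter on low counts gave 2.10 ± 0.38 (adjusted p = 8.98e-05), with 1.13 ± 0.35 (adjusted p = 0.0133) at 1 week.

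**Figure D4:**
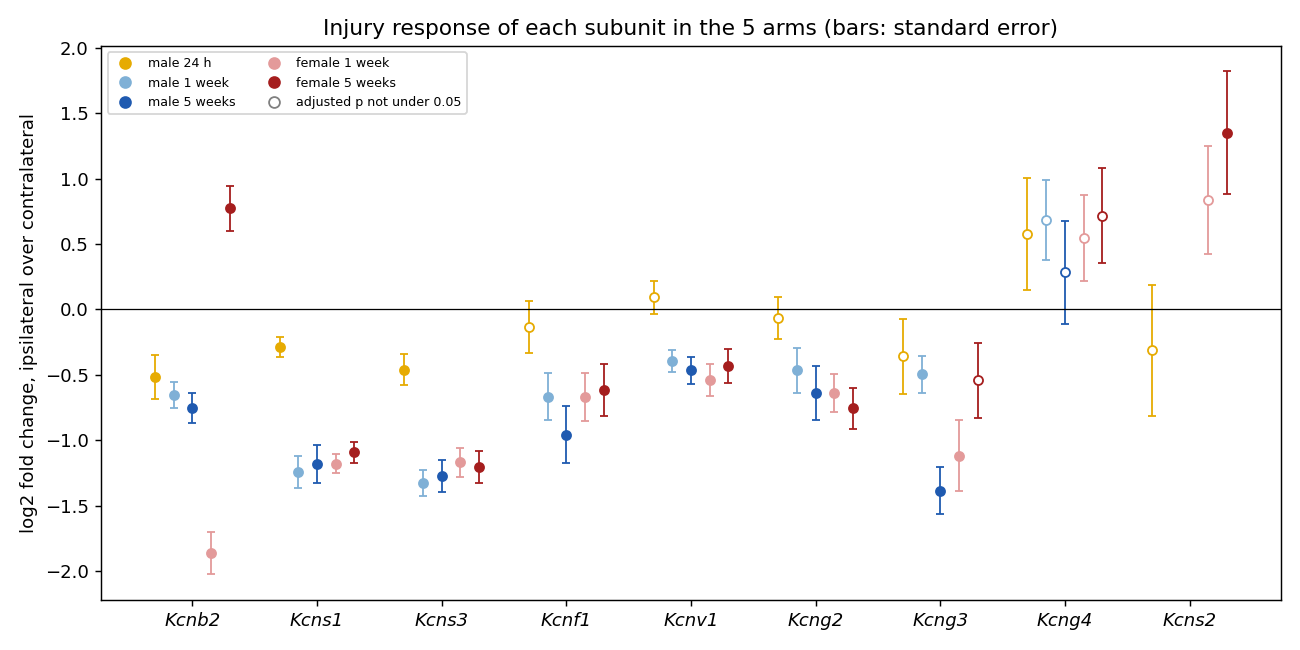
Log2 fold change, ipsilateral over contralateral, of each member in the 5 arms with its standard error; filled points are called at an adjusted p under 0.05 and open points are not. Most points lie below 0, the female points of Kcnb2 lie on opposite sides of 0, and those of Kcng4 lie above 0 without being called.

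Between the sexes and the weeks the injury response of most members could not be told apart at this precision. Between females and males at 1 week it differed for Kcnb2 alone of 9 tested (1.11% of all 19209 genes), the female response being lower by 1.22 on the log2 scale (difference -1.22 ± 0.20, adjusted p = 5.14e-05). At 5 weeks it differed again for Kcnb2 alone (2.11% of all genes), now with the female response higher (1.49 ± 0.22, adjusted p = 8.27e-06). The differences of the 8 others ranged from -0.63 to 0.15 at 1 week and from -0.77 to 0.81 at 5 weeks. For Kcns1 they were 0.05 ± 0.14 and 0.05 ± 0.15, and for Kcns3 0.15 ± 0.15 and 0.03 ± 0.18. Sex and table cannot be told apart in these comparisons.

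From 1 week to 5 weeks the response of females differed for Kcnb2 alone of 9 (13.5% of all genes; 2.63 ± 0.24, adjusted p = 2.31e-10). In males it differed for none of 8 (0.211% of all genes), with 1 member, Kcng3, at an unadjusted p under 0.05 and with none called by DESeq2 or limma-voom. The Kcng3 difference was -0.89 ± 0.23 (adjusted p = 0.112), and with same-numbered libraries as a block it was called (adjusted p = 0.0443). Between 24 h and 1 week in males the response of 3 of 9 members was lower at 1 week (12.0% of all genes called lower), with differences for Kcns1 of -0.95 ± 0.14 (adjusted p = 8.38e-07), Kcns3 of -0.87 ± 0.16 (adjusted p = 4.71e-05) and Kcnv1 of -0.48 ± 0.16 (adjusted p = 0.0198). The response of Kcnb2 differed there by -0.14 ± 0.20 (adjusted p = 0.691), and these arms lie in separate tables. On the contralateral side alone, 5 weeks against 1 week, Kcnb2 was the 1 member of 9 called in females (10.7% of all genes), and 0 of 8 were called in males (13.5% of all genes; 3 at an unadjusted p under 0.05, and none by DESeq2 or limma-voom).

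Summed per length, the 8 silent members were lower on the ipsilateral side in every arm, with no overlap of libraries. The sum came to 47.3 ± 4.08 CPM per kb in ipsilateral and 58.2 ± 3.26 in contralateral ganglia of males at 24 h (SD, n = 6 each). At 1 week it was 30.6 ± 5.66 against 66.0 ± 1.87 in males (n = 7 each) and 30.6 ± 4.81 against 64.0 ± 2.33 in females (n = 7 each). At 5 weeks it was 30.8 ± 4.20 against 66.2 ± 3.72 in males (n = 5 each) and 34.5 ± 7.49 against 70.2 ± 2.02 in females (n = 6 each). Kcns1 and Kcns3 make up most of this sum, so it follows them, and it is a description of the libraries.

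The remaining silent subunits, Kcng1 and Kcnv2, were called in no arm, with log2 fold changes between -0.54 and 0.19. Of 16 known partners and regulators of Kv2 channels, 2 rose and 2 fell in males at 24 h, 3 rose and 12 fell in males at 1 week, 3 and 10 in males at 5 weeks, 3 and 12 in females at 1 week, and 3 and 9 in females at 5 weeks. Of all genes 8.23% rose and 5.90% fell in males at 24 h, 23.6% and 23.4% in males at 1 week, 16.0% and 18.7% in males at 5 weeks, 23.9% and 21.8% in females at 1 week, and 22.9% and 19.1% in females at 5 weeks. Amigo1, the auxiliary subunit that travels with Kv2 channels, fell in 4 arms, with log2 fold changes down to -0.75, and its relative Amigo3 in all 5, down to -1.28. Snap25, a membrane fusion protein that binds Kv2 channels, fell in 4 arms (down to -0.77), as did Jph3, a junctophilin of contacts between the endoplasmic reticulum and the plasma membrane (down to -0.66), and Ppp3cb, a catalytic subunit of calcineurin (down to -0.43). Stx1a, a syntaxin that binds Kv2 channels, rose in all 5 arms, by up to 0.63, and Mapk14, the p38 kinase, in all 5 by up to 0.26. Vapa, an anchor of Kv2 clusters to the endoplasmic reticulum, was called in no arm.

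Of 28 other voltage-gated potassium channel subunits, 25 were tested. They counted 0 higher and 2 lower in males at 24 h, 4 and 16 in males at 1 week, 4 and 14 in males at 5 weeks, 4 and 16 in females at 1 week and 5 and 12 in females at 5 weeks, to be read against the same shares of all genes. Their median log2 fold changes were -0.12, -0.40, -0.37, -0.50 and -0.25 in that order, against the members' medians of -0.29, -0.57, -0.86, -0.67 and -0.54. The difference between these lists was not tested.

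The silent members' closest companions were found by the same correlation over 62 libraries with arm means removed. Kcns1 was followed most closely by Sema7a (r = 0.98), Nat8l (0.98) and Pla2g7 (0.98), and Kcns3 by Cntn4 (0.98), Rpa1 (0.98) and Entpd3 (0.98). Within the contralateral libraries alone r was lower, at 0.39 to 0.72 for the companions of Kcns1 and 0.40 to 0.59 for those of Kcns3. Kcnf1 and Kcng2 shared Dpysl4 (0.94 and 0.91) and Rgs10 (0.93 and 0.90) among their first 3, with Grik1, a kainate receptor subunit (0.93), beside Kcnf1 and Gfra2, a receptor for neurturin (0.89), beside Kcng2. Within ipsilateral libraries alone the r of Kcnf1 with Dpysl4 was 0.94, and within contralateral ones 0.51. Kcnv1 was nearest to Galnt14 (0.87, and 0.38 within contralateral libraries) and Kcng3 to Dmxl2 (0.80), while for Kcng4 no gene passed the 0.57 of Abca17. Kcns2, tested in one table only, was left out of this comparison.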

How the data were processed

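Estimated counts per gene were deposited by the authors in 2 tables: 74.1% and 78.1% of their nonzero values are whole, and the rest are fractions. The submitters' processing notes list STAR 2.7.2b, featureCounts 1.6.4, cutadapt 2.5, bcl2fastq 2.20.0.422 and the genome build mRatBN7.2. Per the labels' protocols, stranded poly-A libraries were made from 300 to 500 ng of RNA; how strand was used in counting is not given in the sources used here. The design had named counts as the unit; the values were rounded to whole numbers, changing library totals by no more than 0.0014%. edgeR 4.0.16 (R 4.3.3) was run with TMM scaling, filterByExpr (minimum count 10) and the robust quasi-likelihood test on all groups of a table, and on both tables together for contrasts across them, with Benjamini-Hochberg adjustment. limma 3.58.1 (voom) and DESeq2 1.42.0 were alternatives, and the fits were tested on simulated data. CPM, counts per M, use scaled library sizes of both tables together. Coordinates of genes come from the deposited tables. The named genes were all members, further silent subunits, the listed partners and the 3 most similar genes of each member; members and lists were chosen with earlier results of these data known.

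In the second table both sides of a number carry one animal code. In the first the labels do not. Every same-numbered pair of sides there correlated above 0.1 in its deviations from the group means (median 0.39 at 1 week and 0.27 at 5 weeks). The numbers were therefore treated as pairs in the counts of pairs and in the fits with same-numbered libraries as a block. The main tests compared group means without this pairing, so their adjusted p and standard errors are unpaired. The labels of the males at 1 and 5 weeks do not say whether those libraries come from separate animals, so p-values there measure the spread between samples. No 2 libraries held identical values.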

Additional observations from a re-analysis of the deposited data

Results flagged for a closer look

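Single libraries stood apart from their group for 7 of 90 combinations of member and group, where chance would give about 4.5. Kcnb2 was 47.5 CPM in contralateral number 7 of females at 1 week, with the others at 27.4 to 34.6, and 31.5 in ipsilateral number 2 of females at 5 weeks, with the others at 23.1 to 25.8. Kcns1 was 67.0 in ipsilateral number 3 of males at 1 week, with the others at 33.1 to 42.0, and 80.9 in contralateral number 1 of males at 5 weeks, with the others at 104 to 111. Kcnv1 was 7.87 in ipsilateral number 4 of males at 5 weeks, with the others at 11.04 to 11.7. Kcnf1 was 13.5 in contralateral number 4 of males at 24 h, with the others at 9.91 to 11.1. Kcns2 was 0.0410 in contralateral number 4 of females at 1 week, with the others at 0.238 to 0.372.

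Injury responses differed between groups by a test of the difference in 6 cases. The response of Kcnb2 in females was higher at 5 weeks than at 1 week by 2.63 on the log2 scale. Between females and males it differed by -1.22 at 1 week and by 1.49 at 5 weeks. In males the responses at 1 week and 24 h differed by -0.95 for Kcns1, -0.87 for Kcns3 and -0.48 for Kcnv1.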

How the results depend on the processing

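The count of members called in males at 24 h was 1 without numbers 5 and 6 on both sides. In females at 1 week it was 3 with the ribosomal RNA share as a covariate, where that share does not overlap between the sides. Kcnv1, Kcnf1, Kcng2 and Kcng3 were then not called, with log2 fold changes of -0.29, -0.75, -0.52 and -1.07 (adjusted p = 0.35, 0.12, 0.171 and 0.121). With same-numbered libraries as a replicate block, 1 member, Kcng3, differed in response between 5 weeks and 1 week in males; the block changed no other call than those given for Kcnb2 at 24 h and for Kcng4. In fits of only the groups compared, Kcns1 (0.15, adjusted p = 0.0249) and Kcng2 (0.35, 0.00893) were called beside Kcnb2 between the weeks on the contralateral side of females. On that side of males Kcnv1 (-0.24, 0.0222) and Kcnf1 (0.39, 0.0198) were called. Leaving out single libraries gave 2 to 3 called members in males at 24 h, 6 to 8 in males at 1 and at 5 weeks, 7 to 8 in females at 1 week and 6 to 8 in females at 5 weeks. On the contralateral side of males it gave 0 to 1, the 1 being Kcng3 without contralateral number 6 of 1 week. The share of all genes called in these refits is not given here, so the counts only describe how steady the calls were. Kcnb2 in females at 5 weeks reversed to -0.35 against the contralateral libraries of 1 week and to -0.54 as the mean of both weeks, a setting chosen after seeing the data. Against the other week's contralateral libraries Kcnv1 in males at 1 week (adjusted p = 0.143), Kcng2 in males at 5 weeks (0.122) and Kcns2 in females at 5 weeks (0.0554) were not called, nor was Kcnf1 in females at 5 weeks with only the groups compared (0.0598). Without numbers 5 and 6 at 24 h Kcns1 (0.185) was not called, nor was the difference of Kcnv1 between 1 week and 24 h (0.0707). Kcns2 had at most 22 counts in a library. The cause of these changes was not tested.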
